A study of Homo sapiens with 6 samples.

Results

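Integrins, collagens and laminins form the contact between an epithelial cell and the matrix around it. Their genes were taken from the RNA-seq files by symbol: all integrin alpha chains (ITGA plus a number or a letter), the integrin beta chains, every collagen chain written as COL, a number, A and a number, and every laminin alpha, beta or gamma chain (LAMA, LAMB or LAMC plus a number). Antisense genes, pseudogenes and like-named genes that code for other proteins, 7 rows in all, were left out. This gave 48 of the 16305 genes in the files, with 17 integrins, 23 collagens and 8 laminins. The GENCODE annotation of GRCh37 holds 26, 44 and 12 protein-coding genes of these names, and the other 34 were not analysed here.

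The data are RNA-seq profiles of Huh7SR cells, a sorafenib-resistant derivative of the human hepatocellular carcinoma line Huh7, treated with fostamatinib (3 samples) or with the solvent DMSO as vehicle control (3 samples). The drug is an inhibitor of SYK, a spleen tyrosine kinase, but the study did not detect SYK protein in Huh7 cells. The study proposes that the drug acts through other targets, and its direct targets are not yet known. Western blots of the study, at another dose and time, showed lower phosphorylation of ERK, AKT, STAT3, EGFR and JNK after the drug. The sample labels give 2 µM and 24 h for both groups, and the dose written for DMSO equals that of the drug. Both groups share the history of long sorafenib exposure, and the study's methods describe withdrawal of sorafenib for several days before experiments. Parental Huh7 cells were not part of these samples, and 1 resistant line is a limited model of resistant tumors. The comparison asks which genes differ between drug and vehicle in resistant cells. Nothing in the labels says that the 3 samples of a group were separate cultures. The p-values rest on the spread between samples, pooled in part across genes, and that spread may be technical.

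Each sample had 13303451 to 15272737 reads on the listed genes, recovered from the deposited log2 CPM (each count scaled to library size, on the log2 scale). Read counts of same-group samples had 1.64 to 3.74 times the variance that counting alone would give, and those of a DMSO and a fostamatinib sample 39.7 to 44.3 times. All 12 hepatocyte and liver cancer markers were in the files, at a summed 8293 to 8592 CPM in the DMSO samples and 7712 to 7822 CPM in the fostamatinib samples. Of 8 stellate cell or fibroblast markers, 3 were in the files (PDGFRB, LUM and TAGLN), and their sum was 351 to 360 CPM with DMSO and 212 to 234 CPM with fostamatinib, while ACTA2, PDGFRA, DCN, THY1 and DES were not among the genes in the files. Of 5 endothelial markers only PECAM1 was in the files, at 6.10 to 6.93 CPM and 8.72 to 9.89 CPM. Of 5 leukocyte markers only CD14 was, at no more than 0.491 CPM. The part of these markers in the results below was not tested.

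Integrins are receptors made of 1 alpha and 1 beta chain that link the matrix outside the cell to the actin cytoskeleton inside it. Laminins are cross-shaped trimers of an alpha, a beta and a gamma chain, and together with the collagen IV network they make up the basement membrane on which epithelial cells rest. Fibrillar collagens such as collagen I give tissue its tensile strength. In the liver, hepatocytes face a thin matrix with little laminin, and tumors and scarred liver hold more collagen and laminin.

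After fostamatinib, 10 of the 17 integrins fell, among them ITGA2 at 0.472 times its DMSO level. The collagen IV chains COL4A3 to COL4A6 and the anchoring fibril collagen COL7A1 rose. The laminins divided by chain, with LAMB2 at 1.74 times and LAMB1 at 0.687 times the DMSO level. In RNA from whole cultures, fewer cells that make a transcript and less transcript per cell cannot be told apart. In limma's test, with Benjamini-Hochberg adjustment over all 16305 genes, 31 of the 48 members (64.6%) passed the threshold of 0.05, 14 higher and 17 lower. Over all genes the share was 47.8%, with 23.3% higher and 24.5% lower.

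By family, of the 17 integrins 3 were higher, 10 lower and 4 not called, with a median log2 fold change of -0.22. Of the 23 collagens 8 were higher, 4 lower and 11 not called, with a median of 0.30. Of the 8 laminins 3 were higher, 3 lower and 2 not called, with a median of -0.0021. The median over all 16305 genes was 0.0015. In 33 of the 48 genes all fostamatinib samples lay on 1 side of all DMSO samples, against 54.1% of all genes. A change of at least 2-fold with an adjusted p-value under 0.05 was found for 7 of the 48, namely 5 integrins and 2 collagens, and for 7.13% of all genes. Well-covered genes were called more often in general: among genes averaging 300 reads or more, 64.5% were called, and of the 23 members at that depth 21 were, 10 higher and 11 lower. This limit on reads was chosen after the values were seen. Of the 48 members 46 passed a filter of at least 5 reads in 2 of the 3 samples in both groups. COL16A1 passed only through the DMSO group and ITGA10 only through the fostamatinib group, so these 2 had to differ between groups, and they are among the called, non-overlapping and 2-fold members counted here. The differences between families were not tested, and these counts and medians are a description.

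**Figure D1:**
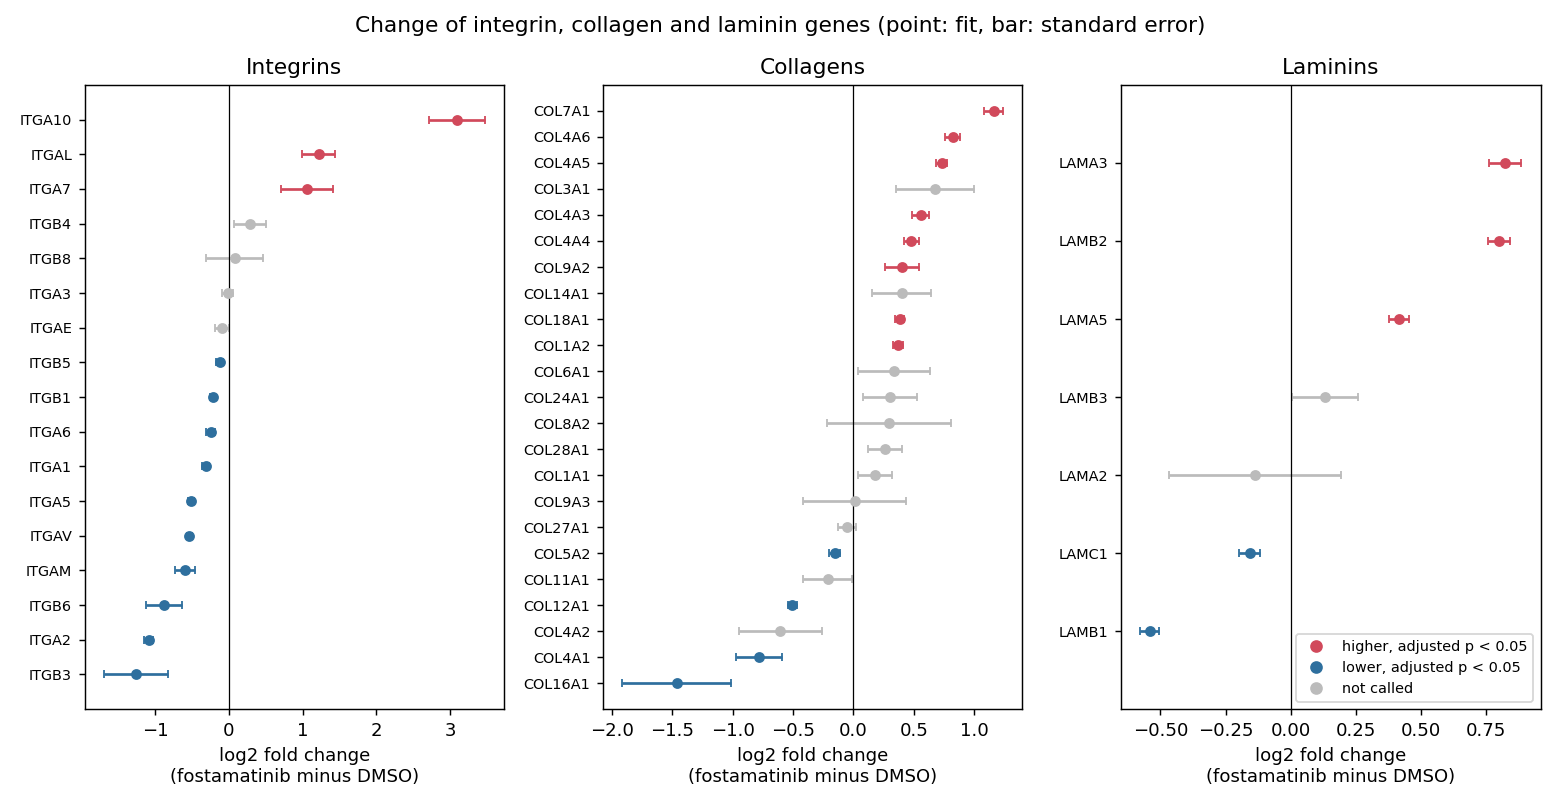
Log2 fold change (fostamatinib minus DMSO) of 47 of the genes, 1 panel per family with its own horizontal range, with the limma fit as a point and its standard error as a bar, colored by whether the adjusted p-value was under 0.05 and in which direction. Most called integrins lie left of 0, with ITGA10 far to the right at 3.09, the collagen IV chains COL4A3 to COL4A6 lie right of 0, and the laminins lie on both sides, from LAMB1 at -0.54 to LAMA3 at 0.82.

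The best covered of the integrins that fell by more than 2-fold was ITGA2, the alpha chain of a collagen and laminin receptor, encoded on chromosome 5 of GRCh37 (chr5:52285170-52390609, + strand). Its reads numbered 1173, 1246 and 1375 with DMSO and 517, 600 and 565 with fostamatinib. The groups were far apart, since even the highest fostamatinib sample had 600 reads against 1173 in the lowest DMSO sample. On the log2 CPM scale ITGA2 went from 6.43 ± 0.092 (SD, n = 3) to 5.35 ± 0.10 (SD, n = 3), which is a change of -1.08 with a standard error (SE) of 0.060 (adjusted p = 3.11e-17, limma). With each sample left out in turn the change lay between -1.12 and -1.03. Without the mean-variance trend the adjusted p-value of ITGA2 was 6.58e-04 (limma). The sequence before its start is shown because ITGA2 had the largest fall among integrins with at least 300 mean reads. It holds 4 GC boxes (capitals, GGGCGG or its reverse complement CCGCCC) in the 250 bases before the RefSeq start, on the + strand of GRCh38.p14 (chr5:52989102-52989351).
ITGA2: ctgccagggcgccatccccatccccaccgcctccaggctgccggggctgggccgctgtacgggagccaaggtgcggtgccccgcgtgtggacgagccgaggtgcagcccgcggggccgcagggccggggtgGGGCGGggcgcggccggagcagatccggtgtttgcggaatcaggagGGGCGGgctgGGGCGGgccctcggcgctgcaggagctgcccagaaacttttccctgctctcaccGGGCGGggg

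The sister collagen receptor chain ITGA1, a neighbor of ITGA2 on chromosome 5, fell less. ITGA1 had 1896, 2079 and 2201 reads with DMSO and 1545, 1627 and 1500 with fostamatinib, a log2 fold change of -0.31 (SE 0.045, adjusted p = 4.46e-07). To compare levels between genes, reads were divided by summed exon length and library size (RPKM). The summed length covers the exons of every annotated transcript of a gene and can exceed the length of a single transcript. On the RPKM scale ITGA2 stood at 1.45, 1.41 and 1.47 times the level of ITGA1 in the 3 DMSO samples and at 0.786, 0.866 and 0.885 times in the 3 fostamatinib samples. On this scale ITGA2 was above ITGA1 in every DMSO sample and below it in every fostamatinib sample. That order rests on the summed exon lengths of 18545 bases for ITGA1 and 7896 for ITGA2, since ITGA1 had more reads than ITGA2 in every sample, whereas the relative fall of ITGA2 does not depend on length. An exact permutation test of this ratio gave p = 0.10 (two-sided), the smallest value that 3 samples against 3 allow. A small part of ITGA1, 2.69% of its exon bases, is shared with PELO on the same strand, whose own log2 fold change was -0.07 (adjusted p = 0.332), and 7.47% with the antisense gene ITGA2-AS1, not analysed here.

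ITGA5 and ITGAV, the alpha chains of fibronectin and vitronectin receptors that bind the RGD peptide, fell together. ITGA5 had 3450, 4202 and 3828 reads with DMSO and 2495, 2612 and 2423 with fostamatinib. ITGAV had 6100, 6443 and 6883 reads with DMSO and 4196, 4440 and 3986 with fostamatinib. For both genes the groups did not overlap, and the log2 fold changes were close, -0.52 for ITGA5 (SE 0.041, adjusted p = 6.41e-13) and -0.53 for ITGAV (SE 0.038, adjusted p = 3.81e-14). ITGA6, a laminin receptor chain, fell by 0.25 on the log2 scale (adjusted p = 3.30e-04). The other laminin receptor chain in quantity, ITGA3, had a log2 fold change of -0.01 with a standard error of 0.072, and its adjusted p-value was 0.894.

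ITGB1, the common beta chain that pairs with all of these alpha chains, was the most abundant integrin per length. It had 16979, 18511 and 18971 reads with DMSO and 14389, 15378 and 14303 with fostamatinib. The groups did not overlap, and the log2 fold change was -0.22 (SE 0.032, adjusted p = 8.21e-07). Summed over the 11 alpha chains, the level was 92.9 ± 2.1 RPKM (SD, n = 3) with DMSO and 66.5 ± 1.1 RPKM (SD, n = 3) with fostamatinib, 0.716 times as high. Summed over the 6 beta chains it was 99.2 ± 2.5 RPKM (SD, n = 3) and 86.1 ± 1.6 RPKM (SD, n = 3), 0.868 times as high. Neither sum overlapped between groups (two-sided exact permutation p = 0.10 for each, the lowest possible here).

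Of the other beta chains, ITGB5 and ITGB6, which pair with ITGAV, and ITGB3, which pairs with ITGAV and with the platelet alpha chain, were lower as well. ITGB6 had 33, 47 and 43 reads with DMSO and 18, 18 and 27 with fostamatinib (log2 fold change -0.87, SE 0.24, adjusted p = 3.32e-03), and 16.7% of its exon bases are shared with a long non-coding gene on the same strand. ITGB3 had 15, 17 and 14 reads with DMSO and 5, 3 and 12 with fostamatinib, a log2 fold change of -1.25 with a standard error of 0.44 (adjusted p = 0.0169). The call was lost without fostamatinib replicate 2 (log2 fold change -0.81, adjusted p = 0.123), without DMSO replicate 2 (adjusted p = 0.0528) and without the mean-variance trend (adjusted p = 0.103). Of its exon bases 33.2% are shared with another gene on the same strand, not analysed here. ITGB5 changed little, at -0.12 on the log2 scale (adjusted p = 0.0430), and this call was lost when any sample other than DMSO replicate 2 was left out (adjusted p up to 0.145).

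Integrin chains better known from blood cells, muscle and cartilage were present at low levels and moved in both directions. ITGAM, an alpha chain of myeloid cells, had 106, 138 and 117 reads with DMSO and 77, 77 and 70 with fostamatinib (log2 fold change -0.59, SE 0.13, adjusted p = 3.63e-04). ITGAL, an alpha chain of lymphocytes, had 16, 38 and 32 reads with DMSO and 56, 66 and 57 with fostamatinib (log2 fold change 1.22, SE 0.23, adjusted p = 2.95e-05). DMSO replicate 1 was the lowest for ITGAL, and over the leave-one-out fits the change ranged from 0.89 to 1.43 with the call kept. The only leukocyte marker in the files, CD14, stood at 0.491 CPM or lower in every sample. The leukocyte marker PTPRC and the integrin beta chain ITGB2 were not among the genes in the files.

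ITGA10, the alpha chain of a collagen receptor known from cartilage, had 4, 3 and 4 reads with DMSO and 21, 47 and 35 with fostamatinib. All fostamatinib samples lay above all DMSO samples, though with few reads. The ratio of the summed reads, 103 to 11 and scaled for library size, was 9.96 with a 95% interval of 5.34 to 20.6 that covers counting error only. The fitted log2 fold change was 3.09 (SE 0.38). Since ITGA10 met the filter on low reads only through the fostamatinib group, where it is high, its direction was fixed by the filter and its test is no support for a rise. ITGA7, a laminin receptor chain of muscle, had 12, 12 and 6 reads with DMSO and 19, 17 and 22 with fostamatinib (log2 fold change 1.06, adjusted p = 0.0119). Its call was lost without DMSO replicate 3 (adjusted p = 0.0871) and without fostamatinib replicate 3 (adjusted p = 0.0656). ITGAE, ITGB4 and ITGB8 were not called, with log2 fold changes of -0.09, 0.29 and 0.08 and overlapping groups.

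**Figure D2:**
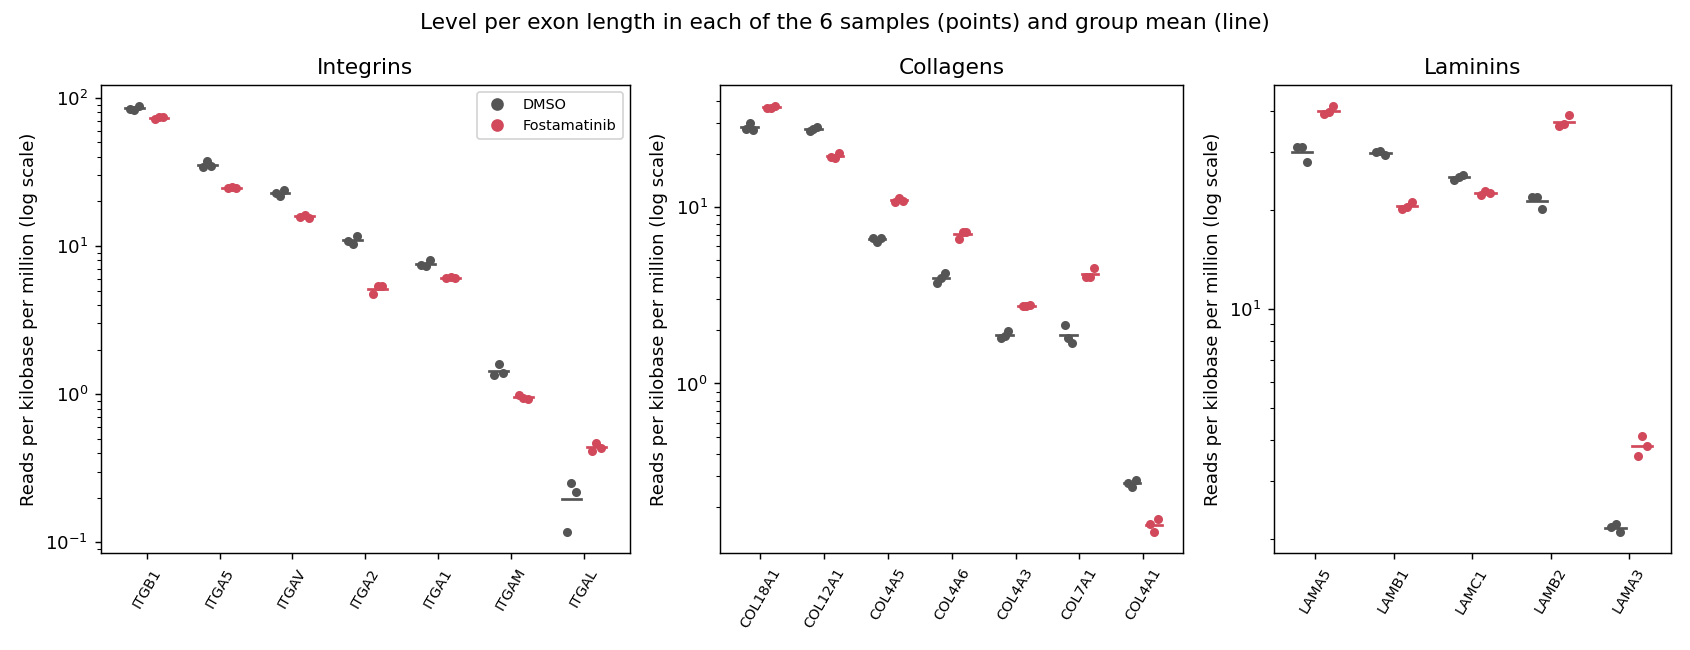
Level per length (RPKM, log axis, with its own range in each panel) of 19 members picked by call, reads, size of change and level. Each of the 3 DMSO and the 3 fostamatinib samples is 1 point, with a line at the mean of the group. The groups are apart for ITGA2 (means 10.9 and 5.16 RPKM), COL7A1 (1.88 and 4.20 RPKM), LAMB2 (21.2 and 37 RPKM) and LAMB1 (29.9 and 20.5 RPKM).

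In order of level per length, the integrins of the DMSO samples were led by ITGB1 at 85.2 ± 2.2 RPKM, ITGA5 at 35.4 ± 1.7 RPKM and ITGAV at 22.9 ± 1.1 RPKM (SD, n = 3 each). ITGB5 followed at 12.9 ± 0.28 RPKM, then ITGA2 at 10.9 ± 0.70 RPKM. The first 4 places were the same in both groups. ITGA2 went from place 5 to place 7, with fostamatinib levels of 5.16 RPKM for ITGA2, 6.10 RPKM for ITGA1 and 7.73 RPKM for ITGA6. ITGA3 and ITGAE, at 2.63 and 2.60 RPKM with DMSO, did not differ beyond their spread.

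Among the laminins the beta chains moved in opposite directions. LAMB1 is the beta chain of laminins made widely in development and by many epithelia, and LAMB2 is the chain that takes its place in mature basement membranes such as those of kidney and muscle. LAMB1 had 7661, 8579 and 8129 reads with DMSO and 5134, 5393 and 5200 with fostamatinib. LAMB2 had 2063, 2287 and 2048 reads with DMSO and 3392, 3558 and 3522 with fostamatinib. The groups were apart for both chains, in opposite directions. The log2 fold change was -0.54 for LAMB1 (SE 0.035, adjusted p = 3.04e-15) and 0.80 for LAMB2 (SE 0.043, adjusted p = 2.04e-17).

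Per summed exon length the beta chains exchanged places, but in reads they did not. The order per length rests on the summed exon lengths of 18592 bases for LAMB1 and 6865 for LAMB2. These lengths cover the exons of every annotated transcript and need not be those of the transcripts present. LAMB1 had more reads than LAMB2 in every sample, whereas the change of their ratio between groups does not depend on length. LAMB1 was in place 2 of the laminin chains with DMSO, within the spread of LAMA5, at 29.9 ± 0.41 RPKM (SD, n = 3), and LAMB2 in place 4, at 21.2 ± 1.0 RPKM (SD, n = 3). With fostamatinib LAMB2 took place 2 at 37 ± 1.5 RPKM (SD, n = 3) and LAMB1 place 4 at 20.5 ± 0.53 RPKM (SD, n = 3). The ratio of LAMB2 to LAMB1 was 0.729, 0.722 and 0.682 with DMSO and 1.79, 1.79 and 1.83 with fostamatinib (two-sided exact permutation p = 0.10, the lowest possible with 3 against 3). Their sum per length went from 51.1 to 57.5 RPKM, 1.13 times as high, and its direction rests on the exon lengths too. In mean reads, not scaled for library size, LAMB1 went from 8123 to 5242 and LAMB2 from 2133 to 3491. The sequences before the starts of these genes are shown because the chains of this pair moved in opposite directions. Both are on the minus strand of GRCh38.p14, LAMB1 at chr7:108003162-108003411 and LAMB2 at chr3:49133051-49133300, and capitals mark GC boxes and, in LAMB2, an ETS core (CCGGAA or TTCCGG).
LAMB1: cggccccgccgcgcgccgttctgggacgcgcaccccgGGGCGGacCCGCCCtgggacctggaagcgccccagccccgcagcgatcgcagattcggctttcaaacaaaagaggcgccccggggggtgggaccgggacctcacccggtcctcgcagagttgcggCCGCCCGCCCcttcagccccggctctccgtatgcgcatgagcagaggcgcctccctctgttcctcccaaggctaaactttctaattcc
LAMB2: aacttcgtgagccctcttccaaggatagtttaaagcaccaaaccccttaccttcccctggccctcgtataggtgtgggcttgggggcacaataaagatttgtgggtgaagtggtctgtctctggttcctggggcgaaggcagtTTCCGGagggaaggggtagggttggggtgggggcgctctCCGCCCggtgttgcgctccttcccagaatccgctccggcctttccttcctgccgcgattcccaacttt
LAMB1 held 4 GC boxes, 2 of them overlapping, and LAMB2 held 1 GC box and 1 ETS core. These are matches of letters in the 250 bases before the start and were not tested as binding sites.

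The laminin alpha chains LAMA5 and LAMA3 rose. Per length LAMA5 was the highest laminin chain in the fostamatinib samples, while in the DMSO samples it did not differ from LAMB1 beyond the spread. LAMA5 had 6112, 6762 and 5942 reads with DMSO and 7692, 8073 and 7817 with fostamatinib (log2 fold change 0.42, SE 0.039, adjusted p = 3.34e-11). LAMA3, the alpha chain of the epithelial laminin that skin uses for anchoring, had 434, 490 and 452 reads with DMSO and 713, 847 and 735 with fostamatinib (log2 fold change 0.82, SE 0.063, adjusted p = 2.53e-13). For neither gene did the groups overlap. LAMB3, a beta chain that assembles with LAMA3, had 94, 103 and 117 reads with DMSO and 100, 117 and 106 with fostamatinib and was not called (log2 fold change 0.13, adjusted p = 0.417).

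LAMC1, the gamma chain shared by most laminins, fell a little, by 0.16 on the log2 scale (SE 0.040, adjusted p = 1.18e-03). It had 2862, 3243 and 3202 reads with DMSO and 2568, 2747 and 2522 with fostamatinib. LAMA2, the alpha chain of muscle and nerve basement membranes, had 10 to 20 reads in every sample and was not called (log2 fold change -0.14, adjusted p = 0.761). The sum over all 8 laminin chains was 110 ± 2.8 RPKM (SD, n = 3) with DMSO and 126 ± 3.4 RPKM (SD, n = 3) with fostamatinib. This sum depends on the exon lengths used.

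**Figure D3:**
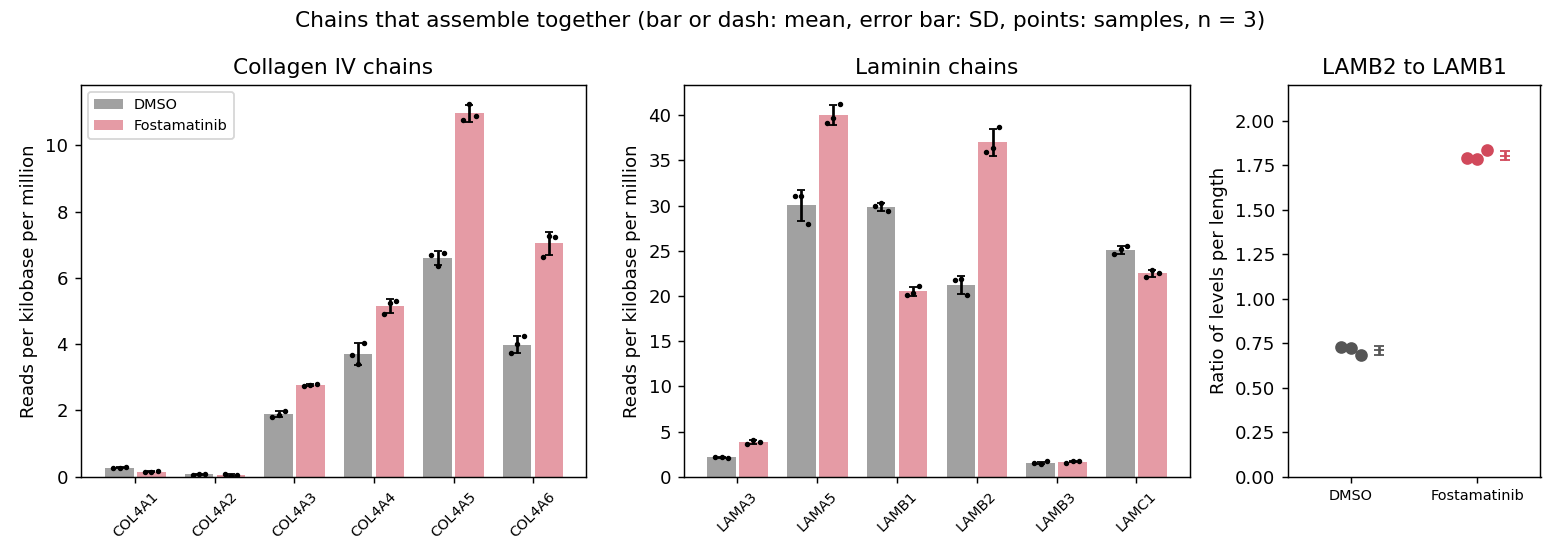
Level per length (RPKM, linear axis from 0) of the 6 collagen IV chains and of 6 laminin chains, and the ratio of LAMB2 to LAMB1, with bars or dashes for the mean, error bars for the SD and points for the 3 samples of each group. The LAMB2 bars exceed the LAMB1 bars only with fostamatinib, an order that rests on the exon lengths used. The ratio lies between 0.682 and 0.729 with DMSO and between 1.79 and 1.83 with fostamatinib. COL4A1 and COL4A2 are near 0 beside the other collagen IV chains.

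Collagen IV is the network-forming collagen of basement membranes, and its 6 chains are encoded as 3 head-to-head gene pairs. The COL4A3, COL4A4, COL4A5 and COL4A6 chains rose, and COL4A1 fell. COL4A5 had 1095, 1153 and 1190 reads with DMSO and 1756, 1905 and 1712 with fostamatinib (log2 fold change 0.73, SE 0.047, adjusted p = 2.24e-15). COL4A6 had 476, 566 and 584 reads with DMSO and 848, 960 and 890 with fostamatinib (log2 fold change 0.82, SE 0.061, adjusted p = 1.05e-13). Both genes of this X-linked pair rose. COL4A3 had 307, 350 and 361 reads with DMSO and 464, 485 and 456 with fostamatinib (log2 fold change 0.56, SE 0.070, adjusted p = 3.12e-08). Of the COL4A3 exon bases 6.82% are shared with MFF-DT on the opposite strand, which was not called (adjusted p = 0.342). The neighbor COL4A4 rose by 0.48 on the log2 scale (SE 0.062, adjusted p = 5.55e-08). In all 4 genes the lowest fostamatinib sample was above the highest DMSO sample.

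The third pair, COL4A1 and COL4A2, makes the collagen IV found in nearly all basement membranes, yet it was the scarcest here. COL4A1 had 55, 58 and 62 reads with DMSO and 32, 30 and 33 with fostamatinib (log2 fold change -0.78, SE 0.19, adjusted p = 9.23e-04). COL4A2 had 15, 24 and 24 reads with DMSO and 22, 8 and 11 with fostamatinib. The COL4A2 groups overlapped and it was not called (log2 fold change -0.60, SE 0.34, adjusted p = 0.148), but without fostamatinib replicate 1 the change was -1 (adjusted p = 0.0254). The sum over the 6 chains was 16.5 ± 0.75 RPKM (SD, n = 3) with DMSO and 26.1 ± 0.75 RPKM (SD, n = 3) with fostamatinib. COL4A1 and COL4A2 made up 2.02%, 2.14% and 2.12% of it with DMSO and 0.956%, 0.647% and 0.805% with fostamatinib (two-sided exact permutation p = 0.10, the lowest possible with 3 against 3).

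The shared start regions of the collagen IV pairs are shown because each pair is read in opposite directions from 1 region. RefSeq starts lie 126 bases apart for COL4A1 and COL4A2, 418 for COL4A3 and COL4A4, and 379 for COL4A5 and the nearest of the 2 starts of COL4A6. Given are the + strand between COL4A1 and COL4A2 (chr13:110307158-110307283), the 250 bases before COL4A3 (chr2:227164374-227164623, + strand) and those before COL4A5 (chrX:108439588-108439837, + strand), all of GRCh38.p14. Capitals mark GC boxes and CCAAT boxes (CCAAT or ATTGG).
COL4A1 and COL4A2: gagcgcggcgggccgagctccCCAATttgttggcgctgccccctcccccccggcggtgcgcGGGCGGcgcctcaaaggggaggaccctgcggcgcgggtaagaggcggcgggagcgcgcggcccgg
COL4A3: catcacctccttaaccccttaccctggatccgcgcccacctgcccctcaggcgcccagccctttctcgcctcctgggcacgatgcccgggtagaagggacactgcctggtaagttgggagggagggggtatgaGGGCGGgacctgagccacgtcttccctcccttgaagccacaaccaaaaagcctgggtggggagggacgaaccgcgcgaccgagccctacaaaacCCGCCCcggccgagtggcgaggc
COL4A5: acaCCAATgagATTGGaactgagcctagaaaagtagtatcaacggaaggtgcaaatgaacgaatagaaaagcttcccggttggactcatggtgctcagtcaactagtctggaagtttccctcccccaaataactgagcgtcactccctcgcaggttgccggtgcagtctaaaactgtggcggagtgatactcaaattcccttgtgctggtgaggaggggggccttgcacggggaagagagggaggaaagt
The COL4A1 and COL4A2 region held 1 GC box and 1 CCAAT box, COL4A3 held 2 GC boxes, and COL4A5 held 2 CCAAT boxes and no GC box.

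COL7A1, which forms the anchoring fibrils that tie the basement membrane to the tissue below, had the largest rise among the collagens. It had 328, 308 and 280 reads with DMSO and 617, 639 and 671 with fostamatinib, with no overlap. The log2 fold change was 1.16 (SE 0.077, adjusted p = 5.62e-15). The 250 bases before its start are shown for that reason (chr3:48595330-48595579, minus strand of GRCh38.p14), with 3 GC boxes and 1 TATA box (TATAAA or TTTATA, here on the opposite strand) in capitals.
COL7A1: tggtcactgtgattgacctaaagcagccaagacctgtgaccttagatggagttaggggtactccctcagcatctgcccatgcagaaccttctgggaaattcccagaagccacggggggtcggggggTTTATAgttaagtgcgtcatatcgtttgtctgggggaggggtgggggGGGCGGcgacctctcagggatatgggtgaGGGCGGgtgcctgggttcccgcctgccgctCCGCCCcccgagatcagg

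COL18A1, a basement membrane collagen whose end fragment is endostatin, had the highest level per length of the collagens in the fostamatinib samples, while in the DMSO samples its 28.5 ± 1.4 RPKM and the 27.9 ± 0.83 RPKM of COL12A1 did not differ beyond their spread. It had 3269, 3881 and 3439 reads with DMSO and 4285, 4453 and 4211 with fostamatinib (log2 fold change 0.38, SE 0.040, adjusted p = 4.22e-10). Of its exon bases 18.5% are shared with SLC19A1 on the opposite strand, which fell by 0.79 on the log2 scale (adjusted p = 1.18e-09), and the strand setting of the counting is not given in the sources used here. COL12A1, a collagen that binds to the surface of collagen fibrils, fell. It had 7031, 8042 and 8049 reads with DMSO and 5015, 5161 and 5090 with fostamatinib (log2 fold change -0.51, SE 0.037, adjusted p = 5.10e-14). COL12A1 thus had more reads than COL18A1 in every sample. The higher level of COL18A1 per length rests on summed exon lengths of 8464 bases for COL18A1 and 18860 for COL12A1.

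Of the fibrillar collagens, COL1A2, the alpha 2 chain of collagen I, rose from 13.2 ± 0.25 to 17.1 ± 0.32 RPKM (SD, n = 3 each), or by 0.37 on the log2 scale (SE 0.042, adjusted p = 3.15e-09). COL1A1, the alpha 1 chain that makes up most of a collagen I molecule, was far lower, at 0.647 and 0.734 RPKM, and was not called (log2 fold change 0.18, adjusted p = 0.298). The level of COL1A2 was 20.6, 20.5 and 20.3 times that of COL1A1 in the DMSO samples and 24.9, 22 and 23.0 times in the fostamatinib samples. COL5A2, a chain of the collagen that starts fibrils, fell by 0.16 on the log2 scale (adjusted p = 6.54e-03). COL3A1, a fibrillar collagen of soft tissue, had at most 21 reads in a sample and was not called (log2 fold change 0.68, adjusted p = 0.0833), but passed without DMSO replicate 1 (adjusted p = 0.0396).

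Most of the remaining collagens were scarce. COL9A2, a cartilage collagen on the surface of fibrils, rose by 0.40 on the log2 scale (adjusted p = 0.0188), with its call lost without DMSO replicate 2 (adjusted p = 0.0575) or fostamatinib replicate 2 (adjusted p = 0.0867). COL16A1, another fibril-associated collagen, had 17, 15 and 9 reads with DMSO and 6, 4 and 3 with fostamatinib. The ratio of its summed reads was 0.337, with a 95% interval of 0.166 to 0.642 for counting error only. COL16A1 met the filter on low reads only through the DMSO group, where it is high, so its direction was fixed by the filter and its test is no support for a fall. COL6A1, a chain of beaded-filament collagen VI, was not called (log2 fold change 0.34) but passed without fostamatinib replicate 3 (log2 fold change 0.75, adjusted p = 0.0318). The others, COL8A2, COL9A3, COL11A1, COL14A1, COL24A1, COL27A1 and COL28A1, were not called and had overlapping groups. Only COL27A1, a fibrillar collagen of cartilage, was well covered among these, with 432 to 528 reads per sample and a log2 fold change of -0.05 (adjusted p = 0.593). Over all 17 uncalled members the log2 fold changes lay between -0.60 and 0.68. The sum over the 23 collagens was 109 ± 1.7 RPKM (SD, n = 3) with DMSO and 124 ± 2.0 RPKM (SD, n = 3) with fostamatinib. This sum depends on the exon lengths used.

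The set of promoters at RefSeq starts that was used here held an entry for 35 of the 48 members. GC boxes, searched on both strands as GGGCGG, were in the 250 bases before the start of 26 of the 35 genes (74.3%), against 42.6% of all 35116 promoter windows. They were found in 8 of 11 genes that rose, 11 of 14 that fell and 7 of 10 that were not called. CCAAT boxes were found in 9 of the 35 genes and 32% of all windows, TATA boxes (TATAAA) in 4 and 10.7%, and ETS cores (CCGGAA) in 5 and 14.5%. The AP-1 motif TGANTCA was found in 2 of the 35 genes and in 6.57% of all windows. All were searched on both strands, and matches of a motif may overlap each other. Several members had more than 1 window, so shares per gene and per window are not the same quantity.

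Genes that work with these receptors and matrix chains were followed in 4 lists. Of 25 tested genes for focal adhesions and integrin adaptors, the proteins that couple integrins to actin, 7 were higher, 8 lower and 10 not called, with a median log2 fold change of -0.02. KANK1, a talin-binding protein at the rim of adhesions, rose by 0.77 on the log2 scale, from 744, 860 and 803 reads to 1275, 1313 and 1257 (adjusted p = 5.32e-15). ZYX, the adhesion protein zyxin, fell by 0.63 on the log2 scale, from 2588, 2906 and 2687 reads to 1759, 1617 and 1605 (adjusted p = 6.38e-14). The integrin activator FERMT1 fell by 0.97 on the log2 scale (adjusted p = 1.96e-03) and the adaptor LIMS1 by 0.55 (adjusted p = 6.05e-11). TLN2, a talin, and TNS2, a tensin, rose by 0.47 (adjusted p = 1.51e-04) and 0.37 (adjusted p = 1.53e-04).

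Of 19 tested integrin ligands and basement membrane partners, 7 were higher, 7 lower and 5 not called, with a median of 0.07. Among the basement membrane proteins NID2, a nidogen that binds laminin and collagen IV, had 197, 195 and 228 reads with DMSO and 604, 573 and 593 with fostamatinib (log2 fold change 1.60, adjusted p = 1.54e-18). HSPG2, the proteoglycan perlecan, rose by 0.63 (adjusted p = 1.18e-15) and NPNT, a ligand of an integrin of developing kidney, by 1.18 (adjusted p = 3.12e-11). Among soluble or matricellular ligands THBS1, thrombospondin, had 1104, 1144 and 1099 reads with DMSO and 324, 284 and 302 with fostamatinib (log2 fold change -1.79, adjusted p = 4.24e-22). SPP1, osteopontin, and CTGF, a connective tissue growth factor, fell by 1.82 (adjusted p = 9.64e-15) and 1.68 (adjusted p = 1.41e-18) on the log2 scale. FN1, fibronectin, the ligand of ITGA5, had a log2 fold change of 0.07 with a standard error of 0.033 and was not called (adjusted p = 0.0680).

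Of 22 tested genes for collagen synthesis, processing and cross-linking, 7 were higher, 10 lower and 5 not called, with a median of -0.17. The largest called rises were small, at 0.27 for the procollagen proteinase BMP1 (adjusted p = 1.22e-05), 0.26 for the collagen export receptor MIA3 (adjusted p = 8.72e-05) and 0.22 for the coat protein SEC23A (adjusted p = 1.39e-05). LOX, the enzyme that cross-links collagen and elastin, fell by 0.89, from 1753, 1883 and 1907 reads to 918, 963 and 929 (adjusted p = 1.50e-17). PCOLCE2, an enhancer of procollagen processing, fell by 1.15 (adjusted p = 1.99e-05), and COLGALT2, a collagen glycosyltransferase with 4 to 30 reads per sample, by 1.12 (adjusted p = 0.0261). The COLGALT2 groups overlapped.

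The last list held matrix receptors other than integrins, and also CD151, CD9, CD81 and RPSA. Of its 14 tested genes 5 were higher, 7 lower and 2 not called, with a median of -0.14. CD44, the hyaluronan receptor, had 5753, 6364 and 6337 reads with DMSO and 2515, 2556 and 2458 with fostamatinib (log2 fold change -1.20, adjusted p = 2.96e-24). CD47, an integrin-associated receptor of thrombospondin, fell by 0.95 (adjusted p = 2.76e-17) and the syndecan SDC3 by 1 from few reads (adjusted p = 0.0235). The laminin receptor BCAM rose by 0.33 (adjusted p = 1.09e-04), the collagen receptor DDR1 by 0.26 (adjusted p = 1.14e-03) and the syndecan SDC1 by 0.24 (adjusted p = 2.38e-03). The shares called in the 4 lists were 60%, 73.7%, 77.3% and 85.7%. They stand beside 47.8% of all genes and 64.5% of genes averaging 300 reads or more. The share of the focal adhesion list was below the latter. These shares are descriptions of lists chosen by function, and they were not matched for depth.

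**Figure D4:**
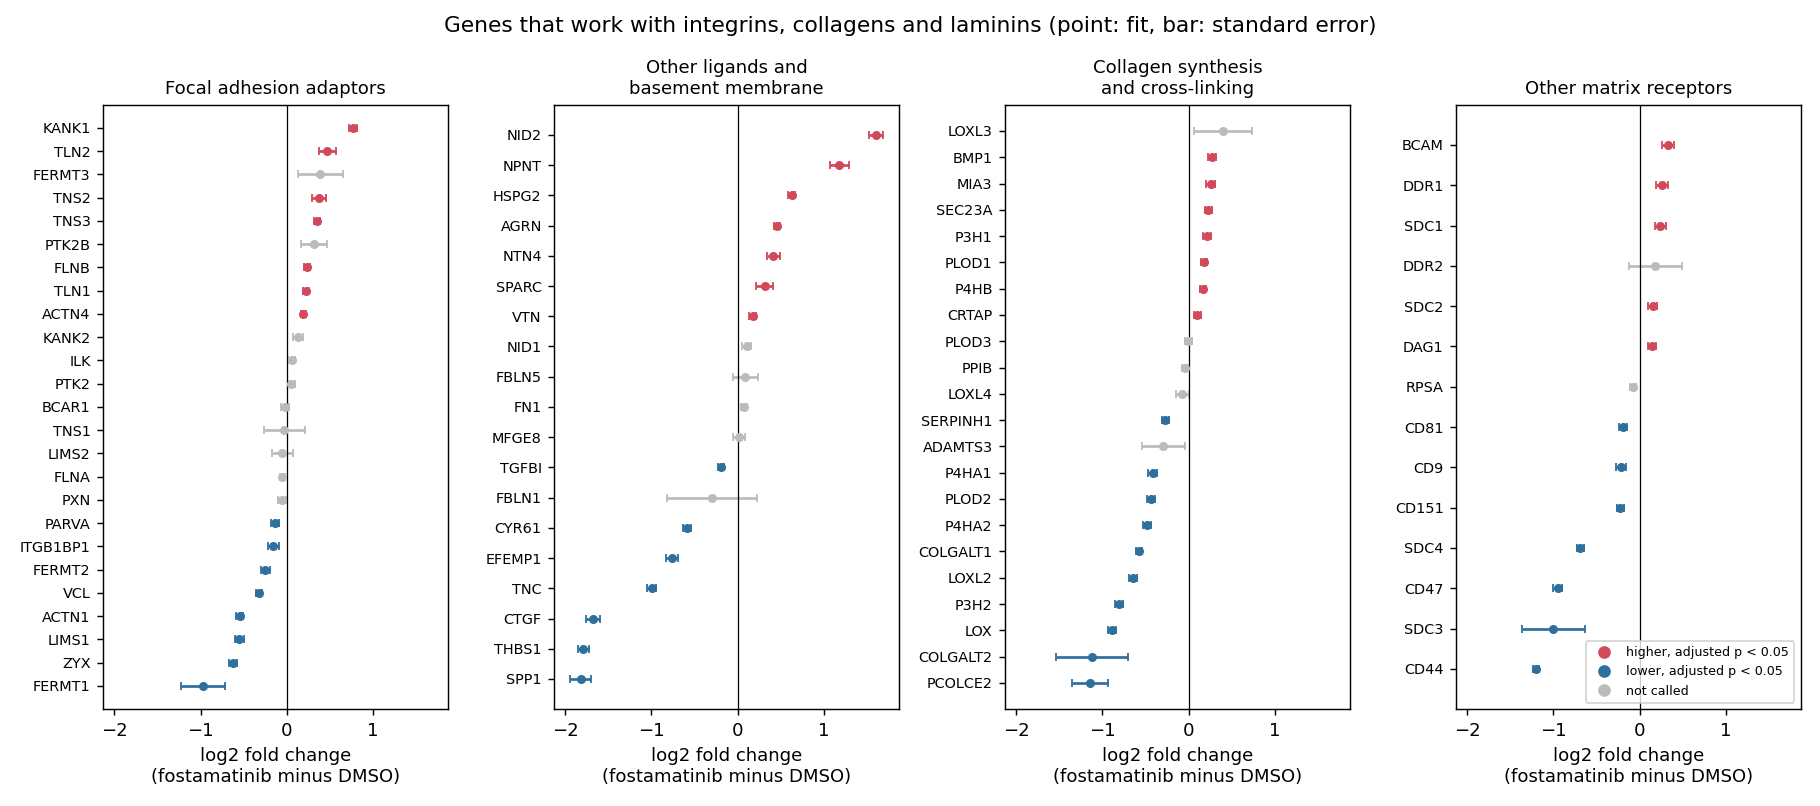
Log2 fold change (fostamatinib minus DMSO) of every tested gene in the 4 lists of genes that work with these receptors and matrix chains, 1 panel per list, with the limma fit as a point and its standard error as a bar. NID2 lies farthest to the right at 1.60 and SPP1, THBS1 and CTGF farthest to the left, at -1.82, -1.79 and -1.68.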

How the data were processed

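Poly(A) RNA of 6 Huh7SR samples was sequenced from directional libraries. Per the labels and the study's methods, the authors aligned the reads with HISAT (build hg19), summed them over GENCODE genes in featureCounts, removed low genes and scaled libraries by TMM. The deposited values are log2 CPM (counts scaled to library size), with 0.5 reads added to each count. Reads were recovered from them, each within 0.05 of a whole number. The depth was 13303451 to 15272737 reads per sample. One ribosomal RNA gene listed under several symbols was used once, which left 16305 genes.

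Fostamatinib was compared with DMSO by limma 3.58.1 in R 4.3.3 (linear model, empirical Bayes, mean-variance trend), fitted to the deposited log2 values of all genes, with Benjamini-Hochberg adjustment and a threshold of 0.05. Since the empirical Bayes fit with its trend pools information across genes, the test had a median of 33.9 degrees of freedom against 4 from the samples alone. The smallest p-values rest on this trend. Without it the adjusted p-values in limma were 6.98e-04 for LAMB2, 5.09e-04 for COL4A5 and 1.35e-03 for COL7A1, and these calls were kept. RPKM values used summed exon lengths of GENCODE 44 lifted to GRCh37, and gene positions are of that build. The study's methods name an earlier GENCODE release for counting, so a summed length may hold exons over which no reads were counted. Levels per length, their order between genes and their sums depend on this. Filters, scaling, the weighting of reads (limma-voom) and each replicate were varied. The strand setting of the counting is not given in the sources used here.

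Values in every sample are given for members with an adjusted p under 0.05, at least 50 mean reads in the higher group and at least a 2-fold change. Where a family had fewer than 6 of these, the 6 with the largest change were taken from its called members with at least 50 mean reads. The 2 most abundant members of each family were added. Of each list of partner genes the 3 largest called changes in each direction are named, and other values follow by role or were chosen after they were seen. The members and lists were chosen with earlier results of these data known. The values of 1 member are not reported here, though the counts, medians and sums include it.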

Additional observations from a re-analysis of the deposited data

How the results depend on the processing

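The number of called members was 31 of 48, and over the fits that left out 1 sample each it ranged from 28 to 31, with 11 to 12 integrins, 11 to 13 collagens and 6 laminins. Over all genes it ranged from 6958 to 7480, against 7794 with every sample. A cut-off that allows 1 expected false positive over all genes is stricter by construction. Under it 4136 genes, 20 members, 7 integrins and 5 genes of the list with other matrix receptors were called, against 7794, 31, 13 and 12. Replicates with the same number did not deviate together (correlations of 0.0187, 0.0111 and 0.00803), and with a replicate block 31 members and 7977 genes were called. Of the 31 called members 26 kept their call under every setting that tested them other than that stricter cut-off, and none changed direction. Apart from that cut-off, COL16A1, COL9A2, ITGB3, ITGB5 and ITGA7 lost it at least once, and COL4A2, COL6A1 and COL3A1 gained a call without 1 sample. Other scaling moved the median of all genes by 0.0037 (relative log expression) and -0.011 (library size alone) on the log2 scale. The cause of the losses was not tested. Depth limits the genes with few reads: 40 of the 48 members had at least 10 reads in every sample.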
